A study of Drosophila melanogaster with 16 samples.

Results

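Troponin is the calcium switch of striated muscle: troponin C binds calcium, troponin I holds the thin filament inactive at rest, and troponin T ties the complex to tropomyosin. In Drosophila troponin T is encoded by up (upheld), troponin I by wupA (wings up A), and troponin C by TpnC4, TpnC41C, TpnC47D, TpnC73F and TpnC25D. The thorax is filled with such muscle, both the fibrillar flight muscle and the tubular jump and leg muscle, and it lies against the thoracic ganglion from which the motor neurons (MNs) were taken. The troponin genes were therefore examined, gene by gene and transcript by transcript, as a possible trace of muscle RNA in the MN pools.

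The members were found by symbol and comprised 7 of the 12976 genes named on the array, carried by 267 of its 45366 features. A feature is a probe design, and 172 of the 267 features belonged to up, 23 to TpnC41C, 22 to TpnC4, 21 to TpnC25D, 12 each to TpnC73F and TpnC47D, and 5 to wupA. The up features were spread over 17 annotated transcripts, with 12 for up-RD and 10 for each of the other 16. Transcripts of a gene share exons, so features of a gene are not independent measurements.

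Pools of MNs from female flies aged 7 days (n = 5), 35 days (n = 5) and 45 days (n = 6) were compared, with 1 Cy3-labelled array per pool. Each pool held about 10000 GFP-positive cells of 5 flies, sorted by flow cytometry. The study names the dissociated tissue as thoracic ganglion in its main text and as dissected lower thorax in its methods. At all ages GFP was expressed under the D42 driver in a w1118 background, so the sort depended on this driver, and the RNA of every pool was amplified before labelling. The design holds no groups other than the 3 ages. Because each pool mixes cells and flies, fewer cells of a type and less RNA per cell cannot be told apart.

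Levels are given as log2 intensity relative to the array's 75th percentile, so that 0 is the 75th percentile of all features, and a gene's level is the mean over its features. Between 56.7 and 67.1% of the spots lay above background on an array, that is, carried the scanner software's flag for a signal well above the local background. The lowest signal that carried the flag was between -8.89 and -7.22 on this scale, depending on the array. Values near or below it have no order. The 6140 features above background on no array shifted with age too, by a median of -0.81 for 35 against 7 days, -0.28 for 45 against 7 days and 0.53 for 45 against 35 days, so that the background itself was lowest at 35 days on this scale. Levels are compared between ages within a gene, not between genes. The arrays were hybridised on 2 slides, each with all 3 ages. All 7-day arrays lay in one row of the slides and all 35-day arrays in the other, so that slide row and age cannot be told apart between these ages.

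The labelled cell type was checked against marker genes. A gene of a list was counted as above background on an array where any of its features was. A gene with a mean level near background can therefore count, as Hml did at -7.33. All 10 neuronal markers were above background on all 16 arrays, among them Appl, nSyb, elav and Syt1. Of 6 MN markers measured, 5 were above background on all 16 arrays and eve on 6 of them. VGlut, which encodes the glutamate transporter of MN synaptic vesicles, had no feature of that name. The glial factor repo was above background on all 16 arrays, as were the other 6 glial markers. Of the hemocyte markers, crq and Pxn were above background on all 16 arrays, Hml on 15, eater on 8, NimC1 on 3 and He on 0.

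Troponin I RNA was readily measured in every pool, whereas troponin T RNA was near background in most young and middle-aged pools and clearly above it in 4 of the 6 oldest. wupA, the gene of the subunit that blocks contraction in the absence of calcium, had levels of 0.45, -0.87, 1.45, -2.29 and -0.53 in 7-day-old MNs. The levels were 0.90, 0.16, 0.20, 0.75 and -0.47 in 35-day-old MNs, and 0.57, 0.75, 2.08, 1.81, 0.77 and 2.92 in 45-day-old MNs. The highest 3 values of all 16 arrays were thus from 45-day-old flies and the lowest 2 from 7-day-old flies, but the ages overlapped. In 7-day pool 5 the feature A_09_P010057 was below background at -9.26, and the other 4 wupA features averaged 1.65 there. The median intensity of the wupA features ran from 4889 to 40734 at 7 days, from 8367 to 47639 at 35 days and from 18889 to 139684 at 45 days.

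wupA averaged 1.48 ± 0.94 in 45-day-old MNs (n = 6) and -0.36 ± 1.41 in 7-day-old MNs (SD, n = 5). The log2 difference was 1.84 (SE 0.67), with an exact two-sided permutation p of 0.0303, and after Benjamini-Hochberg adjustment over all genes the limma p was 0.483. Against 35-day-old MNs, which averaged 0.31 ± 0.54 (SD, n = 5), the 45-day level was higher by 1.18 (SE 0.46, exact permutation p = 0.0346, adjusted p = 0.530 in limma). Neither difference passed the threshold of an adjusted p under 0.05. The 35-day level exceeded the 7-day level by 0.66 (SE 0.63, exact permutation p = 0.365), less than the spread of the 7-day pools. The order of the ages for wupA was 45, 35 and 7 days, and the neighbours 35 and 7 days did not differ beyond their spread. The 45 against 7 day difference was 1.35 on the first slide and 2.29 on the second, and the 45 against 35 day difference 0.72 and 1.70. Without A_09_P010057, an alternative chosen after seeing the data, the differences were 1.42 for 45 against 7 days, with an unadjusted limma p that no longer passed 0.05, 0.33 for 35 against 7 days and 1.09 for 45 against 35 days.

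**Figure D1:**
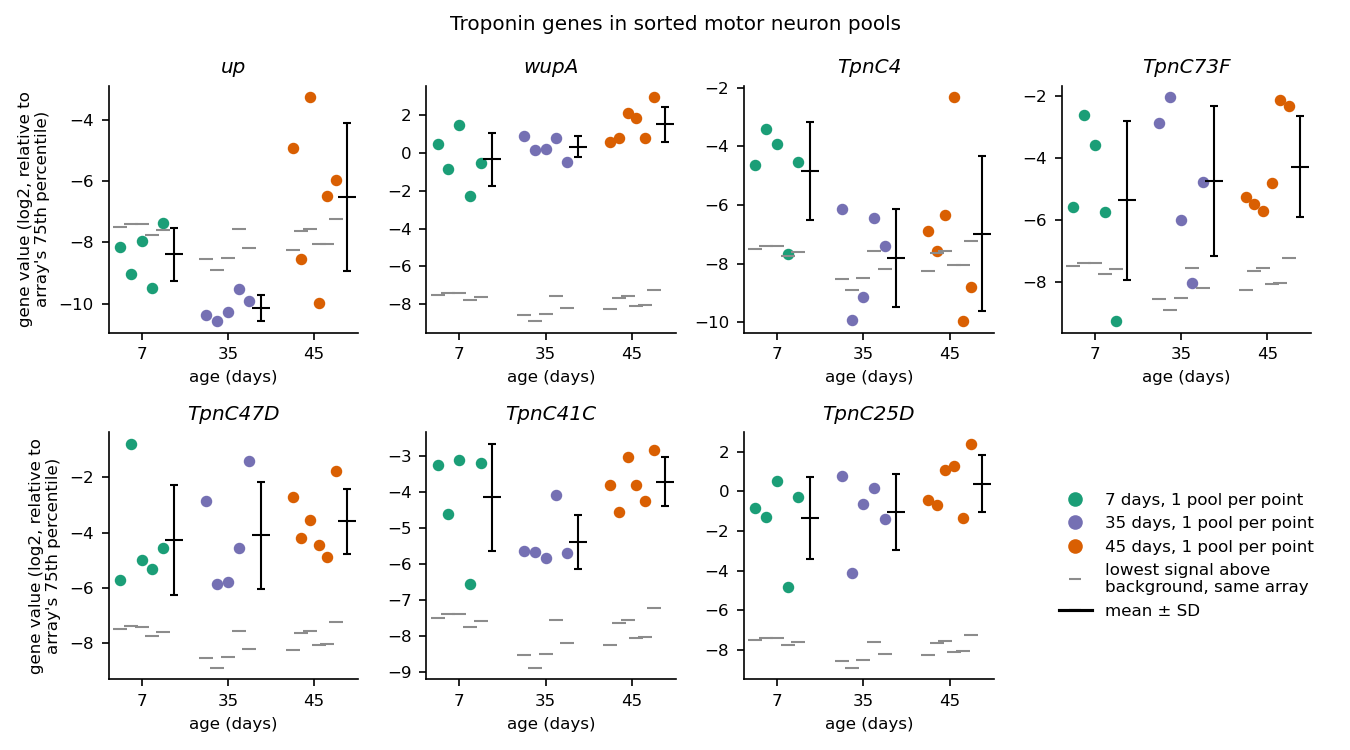
Level of each of the 7 troponin genes (y axis, log2 intensity relative to the array's 75th percentile, mean over the gene's features) by age in days, with 1 point per MN pool, black marks for mean ± SD and a grey dash for the lowest signal above background on the same array. wupA lies between -2.29 and 2.92 over all pools, far above the dashes, while up lies between -10.58 and -9.52 in the 35-day pools and between -9.97 and -3.25 in the 45-day pools.

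up, whose product anchors troponin to tropomyosin, had levels of -8.15, -9.03, -7.94, -9.50 and -7.36 in 7-day-old MNs. The levels were -10.39, -10.58, -10.28, -9.52 and -9.91 in 35-day-old MNs, and -4.91, -8.53, -3.25, -9.97, -6.47 and -5.95 in 45-day-old MNs. Nearly all signals behind the 35-day values, and most of those behind the 7-day values, were under the background limit and have no order. In the 45-day group 4 of 6 pools were above all 7-day pools, while pool 4 was at background.

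Counting features above background gave the same picture. Of the 172 up features, 22, 11, 33, 9 and 56 were above background in the 7-day pools, 1, 5, 4, 2 and 9 in the 35-day pools, and 172, 32, 172, 4, 131 and 132 in the 45-day pools. Their median intensity was at most 42.6 in the 7-day pools, at most 8.79 in the 35-day pools, and 255, 26.6, 753, 8.47, 257 and 311 in the 45-day pools. On no 7-day array were 86 of the features above background, and on no 35-day array 151 of them, while each was above background on at least 1 of the 45-day arrays. For these features a fold can only be bounded, as the measured 45-day mean against the lowest flagged signals of the earlier age. The bound was 1.5- to 10.9-fold (median 3.93) for the 151 at 45 against 35 days. For the 86 at 45 against 7 days it was 1.94- to 4.30-fold (median 2.33). The features were picked for lacking signal at the earlier age, so that their direction follows from the selection. The 45-day means include values under background, and the features are not independent. Between 35 and 7 days 72 of the features were under background at both ages and had no fold, 93 were measured at 1 age only, and 7 were measured at both.

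In 45-day-old MNs up averaged -6.51 ± 2.43 (SD, n = 6), against -8.40 ± 0.86 in 7-day-old MNs (SD, n = 5). The difference of 1.88 (SE 1.06) was smaller than the SD of the 45-day pools (exact permutation p = 0.130, adjusted p = 0.608 in limma). The 35-day pools averaged -10.14 ± 0.42 (SD, n = 5), a measured difference of -1.74 from the 7-day pools (SE 0.42, adjusted p = 0.112 in limma). The exact permutation p was 0.00794, the smallest possible, with 5 of 5 of the 35-day pools below all 7-day pools. Most signals behind these values were under background, and features never above background shifted by -0.81 between these ages. Against 35-day-old MNs the 45-day level was higher by 3.62 (SE 1.03, exact permutation p = 0.0130, adjusted p = 0.530 in limma), and 5 of 6 pools lay above all 35-day pools. The 45-day level was thus the highest on average but did not differ from the 7-day level beyond the spread, and the 7- and 35-day levels were not put in order.

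The size of the up differences varied with slide and scaling. The 45 against 7 day difference was 3.02 on the first slide and 0.80 on the second, and the 45 against 35 day difference 4.85 and 2.25. The 35 against 7 day difference was -1.83 and -1.45 on these slides. Most of the 35-day signals were below background, and after a normexp background correction the 35 against 7 day difference was -0.20 and the 45 against 35 day difference 1.16. Over all genes the median differences were -0.208 for 45 against 7 days, -0.343 for 35 against 7 days and 0.146 for 45 against 35 days. With arrays scaled by their median, the up differences became 2.21, -1.39 and 3.60.

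At the level of single features, 0 of the 267 troponin features passed an adjusted p under 0.05 with a difference above 2-fold between 45 and 7 days in limma, against 0.375% of all features. At an unadjusted p under 0.05, 32 (12.0%) were higher in 45-day-old MNs, 28 of up and 4 of wupA, where 2.71% of all features were higher at this level. Of the 28 up features 26 were above background on no 7-day array. An unmoderated test, the methods' t-test, gave 14 features at an unadjusted p under 0.05 and 0 after adjustment. The share of all features was not computed for this test or for fits without an array, in any pair of ages. Leaving out 45-day pool 2 or 45-day pool 4 gave 1 adjusted call. The median difference was 1.69 over the troponin features and -0.198 over all features.

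Between 45 and 35 days 0 of the 267 features passed the adjusted threshold, against 0.0154% of all features, and 2 passed without 45-day pool 4. At an unadjusted p under 0.05, 172 (64.4%) were higher in 45-day-old MNs, of which 154 were of up, 14 of TpnC41C and 4 of wupA, where 6.34% of all features were higher. The methods' t-test gave 147 features at an unadjusted p under 0.05 and 0 after adjustment, again without a share of all features. Of the 154 up features 140 were above background on no 35-day array. All 172 up features and all 13 features of the transcript TpnC41C-RA were higher on average in 45-day-old than in 35-day-old MNs. The median difference was 3.08 over the troponin features and 0.215 over all features. Features of a gene were measured on the same pools and follow the same arrays.

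Between 35 and 7 days 3 of the 267 features passed, all lower in 35-day-old MNs and all of up, against 0.0749% of all features that passed in this direction. At an unadjusted p under 0.05, 132 (49.4%) were lower, namely 112 of up, 14 of TpnC4 and 6 of TpnC41C, where 23.9% of all features were lower. Of the 112 up features, 110 were above background on no 35-day array and 61 on no array of either age, and the 6 TpnC41C features, all of TpnC41C-RB, were above background at neither age, so that this count includes differences between background values. The methods' t-test gave 117 features at an unadjusted p under 0.05 and 1 after adjustment, again without a share of all features. The median difference was -1.50 over the troponin features and -0.408 over all features. The count of 3 became 71 without 35-day pool 4, 1 without 35-day pool 2 or 35-day pool 3, and 5, 8 and 6 without 7-day pools 3, 4 and 5. For these fits the share of all features was not computed.

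The 3 features that fell lie in the transcripts up-RG, up-RO and up-RR and were above background on none of the 5 arrays from 35-day-old flies, so that only a bound on the fold can be given. This bound sets the 7-day mean against the lowest flagged signal of each 35-day array. The up-RR feature CUST_11994_PI429798866 was above background in all 5 of the 7-day pools, where its levels were -6.99, -6.35, -6.51, -7.29 and -4.75. It was at least 3.91-fold lower in 35-day-old MNs, with measured means of -10.32 at 35 days and -6.38 at 7 days (adjusted p = 0.0286 in limma). The up-RO feature CUST_12014_PI429798866 was at least 2.42-fold lower (5 of 5 of the 7-day pools above background, adjusted p = 0.0121 in limma). Of the 10 features of up-RO, whose isoform is annotated TnT-1, only 3, 1, 2, 1 and 2 were above background in the 7-day pools. The up-RG feature CUST_11939_PI429798866 was at least 1.84-fold lower (3 of 5 of the 7-day pools above background, adjusted p = 0.0341 in limma). Likewise only 2, 2, 5, 1 and 2 of the 10 up-RR features were above background in the 7-day pools. For up-RG the numbers were 3, 0, 3, 0 and 2 of 10, so these bounds hold for the single features and not for their transcripts.

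A moderated F test over the 3 ages called 1 troponin feature, where 0.582% of all features were called, and 140 (52.4%) had an unadjusted p under 0.05, where 20.7% of all features had. The call was CUST_12021_PI429798866, in up-RP, the transcript annotated as the larval isoform TnT-2 (adjusted p = 0.0145 in limma's F test). It was lost without 45-day pool 1. This feature was above background on 0 of 5 arrays at 7 days, 0 of 5 at 35 days and 5 of 6 at 45 days. Its intensities were 269, 105, 896, 37.5, 267 and 381 in 45-day-old MNs, against 8.69 to 34.7 in 7-day-old MNs. It was at least 4.15-fold higher at 45 than at 7 days and at least 7.31-fold higher at 45 than at 35 days, but neither pair passed on its own (adjusted p = 0.184 and 0.305 in limma).

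**Figure D2:**
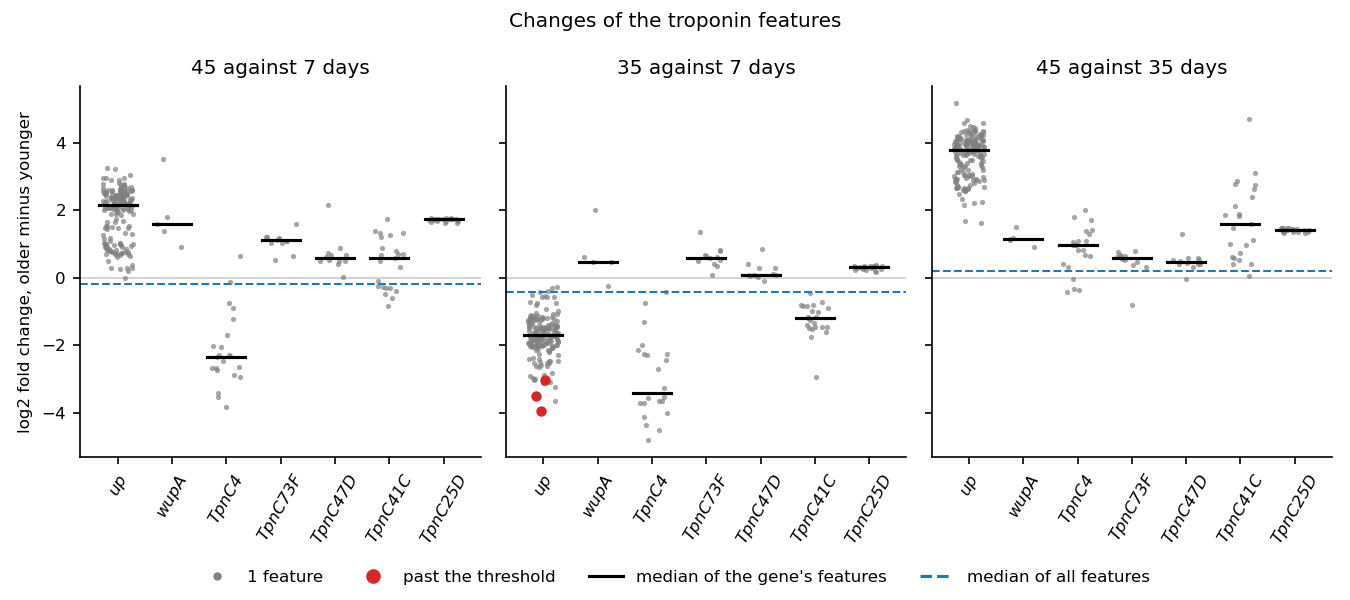
Log2 difference (y axis) of each of the 267 troponin features, grouped by gene, for 45 against 7 days, 35 against 7 days and 45 against 35 days, with black lines for the median of a gene's features, a dashed line for the median of all features and red points for features past the adjusted threshold. The up features lie below 0 for 35 against 7 days (median -1.71) and above 0 for 45 against 35 days (median 3.80), and the 3 red points are up features lower at 35 days.

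As single genes, 0 of the 7 troponins passed in any pair of ages in limma or in the methods' t-test, where 0% of all genes passed for 45 against 7 days, 0.1% for 35 against 7 days and 0.00771% for 45 against 35 days. At an unadjusted p under 0.05 the numbers were 1 (wupA), 2 (up and TpnC4) and 3 (up, wupA and TpnC41C) of 7, where 9.08%, 24.1% and 7% of all genes had such a p. Leaving out 35-day pool 4 brought up past the threshold for 35 against 7 days, at a measured difference of -1.89 between values mostly under background. In all, 21 exact permutation tests were made on the gene levels. The 3 comparisons share their arrays in pairs, so a low 35-day level of up enters 2 of them.

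The up transcripts fell into sets that followed the pools differently. The transcript up-RH, annotated as the TnT-5 isoform of the adult indirect flight muscle, went together with up-RI, up-RJ and up-RM. These 4 transcripts, called the up-RH set, were grouped after their values were seen and carry no test. Of the 40 features of this set, 0, 1, 1, 3 and 40 were above background in the 7-day pools, at most 5 in any 35-day pool, and 40, 25, 40, 2, 0 and 0 in the 45-day pools. At 7 days the signal was thus nearly all in pool 5.

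The remaining 13 up transcripts, 132 features in all, include up-RE, annotated as the TnT-4 isoform of the adult jump muscle. They had 132, 7, 132, 2, 131 and 132 features above background in the 45-day pools and 22, 10, 32, 6 and 16 in the 7-day pools. The 45-day pools 5 and 6 were thus high for these transcripts and at background for the up-RH set, whereas pools 1 and 3 were high for both and pool 4 for neither. Pool 2 of the 45-day group had signal mainly for the up-RH set. The reverse of pools 5 and 6 was seen in 7-day pool 5, which was high for the up-RH set only.

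The levels of up-RH were -9.25, -9.45, -9.45, -9.78 and -3.70 in 7-day-old MNs, -10.58 to -9.43 in 35-day-old MNs, and -4.83, -7.36, -2.99, -10.08, -10.02 and -9.29 in 45-day-old MNs. up-RE had -7.42, -9.21, -7.68, -9.38 and -8.69 in 7-day-old MNs, -10.40 to -9.47 in 35-day-old MNs, and -4.89, -8.61, -3.34, -9.73, -5.34 and -5.03 in 45-day-old MNs. The 2 transcripts separate most clearly in 45-day pools 5 and 6 and in 7-day pool 5. up-RP, the larval isoform, and up-RQ, a weakly documented isoform annotated TnT-3 with a putative place in the dorsal vessel, followed up-RE. In the 45-day pools up-RP had levels of -4.99, -9.18, -3.32, -9.84, -5.36 and -4.96, and up-RQ -5.00, -9.00, -3.37, -10.01, -5.24 and -5.00.

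Features of the up-RH set correlated with each other over the 16 arrays with a median Pearson r of 0.966, and those of the other up transcripts with 0.952, whereas the median r between the sets was 0.561. These correlations are across arrays that share normalization, and overlapping probes share sequence. The sets were formed from these same values, so that a lower r between than within them follows from the grouping.

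**Figure D3:**
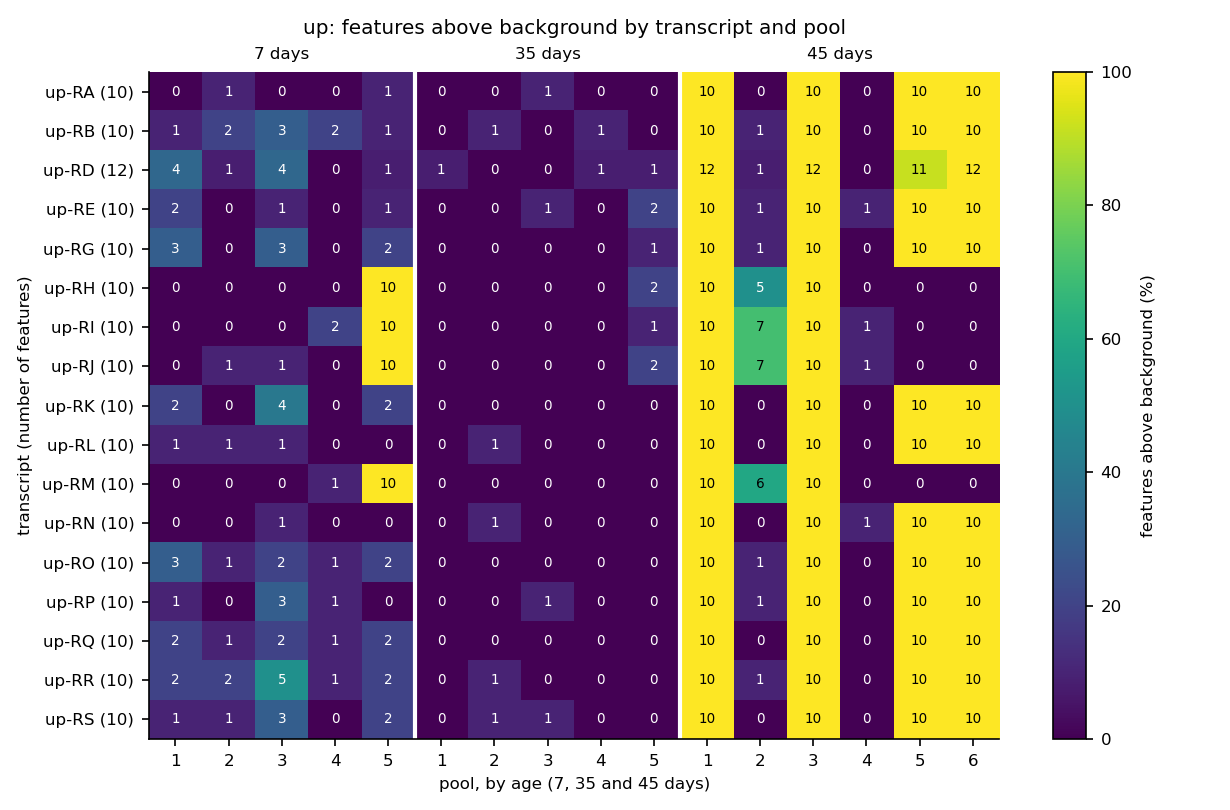
Share of the features of each of the 17 up (troponin T) transcripts that were above background (colour, percent, with the number of features in each cell) in each of the 16 pools, ordered by age. The features of up-RH, RI, RJ and RM were above background in 7-day pool 5 and not in 45-day pools 5 and 6, where nearly all features of the other 13 transcripts were above background.

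Among the troponin C genes, TpnC41C and TpnC4, both known for adult thoracic muscle, were lower on average at 35 than at 7 days, and TpnC41C was higher on average at 45 than at 35 days, without passing the adjusted threshold. TpnC41C had levels of -3.23, -4.61, -3.11, -6.57 and -3.18 in 7-day-old MNs, -5.65, -5.66, -5.84, -4.06 and -5.70 in 35-day-old MNs, and -3.81, -4.55, -3.02, -3.81, -4.25 and -2.81 in 45-day-old MNs. Apart from pool 4, the 35-day values were below every 45-day value. The 45-day mean of -3.71 ± 0.68 (n = 6) exceeded the 35-day mean of -5.38 ± 0.74 (SD, n = 5) by 1.67 (SE 0.42, exact permutation p = 0.0130, adjusted p = 0.530 in limma). The 45 against 7 day difference was 0.43 (SE 0.64, exact permutation p = 0.602), and the 35 against 7 day difference was -1.24 (SE 0.69, exact permutation p = 0.127).

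The TpnC41C signal came from 1 of its 2 transcripts. TpnC41C-RA had 12 or 13 of its 13 features above background on every array, and TpnC41C-RB 1 or 2 of 10. The levels of TpnC41C-RA were 0.91, -1.29, 1.13, -4.32 and 1.36 in 7-day-old MNs, -2.22, -2.14, -2.54, -0.07 and -2.53 in 35-day-old MNs, and 0.59, -1.07, 1.47, 0.73, -0.06 and 1.75 in 45-day-old MNs. All 13 of its features had an unadjusted p under 0.05 for 45 against 35 days, with a median difference of 2.40 and a lowest adjusted p of 0.416 in limma. The median difference for 45 against 7 days was 0.89.

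TpnC4, the troponin C of flight muscle, had levels of -4.64, -3.40, -3.92, -7.67 and -4.54 in 7-day-old MNs and -6.15, -9.94, -9.13, -6.45 and -7.40 in 35-day-old MNs. In 45-day-old MNs they were -6.90, -7.56, -6.32, -2.32, -9.98 and -8.81, so that pool 4, the lowest for up, was the highest for TpnC4. The 35-day mean of -7.82 ± 1.66 was below the 7-day mean of -4.83 ± 1.66 (SD, n = 5 each) by 2.98 on the log2 scale (SE 0.96, exact permutation p = 0.0317, adjusted p = 0.112 in limma), with 2 of 5 pools below all 7-day pools. The difference was -4.39 on the first slide and -1.55 on the second, and -3.69 to -1.45 across the alternatives of processing and left-out arrays. Features never above background shifted by -0.81 between these ages. The 45-day mean of -6.98 ± 2.64 (SD, n = 6) differed from the 7-day mean by -2.15 (SE 1.26, exact permutation p = 0.147), opposite in sign to up and wupA. Of the 22 TpnC4 features, 17, 18, 18, 10 and 17 were above background in the 7-day pools, 16, 4, 5, 14 and 10 in the 35-day pools and 12, 8, 12, 18, 0 and 3 in the 45-day pools.

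TpnC25D was measured most evenly, with 21 of 21 features above background on all 16 arrays and a median correlation between features of 0.999. Its levels were -0.84, -1.31, 0.54, -4.80 and -0.29 in 7-day-old MNs, 0.76, -4.12, -0.63, 0.17 and -1.37 in 35-day-old MNs, and -0.44, -0.69, 1.08, 1.28, -1.36 and 2.40 in 45-day-old MNs. The ages overlapped widely. The 45 against 7 day difference of 1.72 (SE 0.97) was within the spread of the 7-day pools (exact permutation p = 0.134), and the 45 against 35 day difference was 1.42 (SE 0.93, exact permutation p = 0.208). Without 7-day pool 4 the first was 0.86, and without 35-day pool 2 the second was 0.65.

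TpnC73F and TpnC47D differed more between pools of an age than between ages. TpnC73F averaged -5.36 ± 2.56 at 7 days (n = 5), -4.75 ± 2.41 at 35 days (n = 5) and -4.29 ± 1.63 at 45 days (SD, n = 6), with pools between -9.27 and -2.05. Nearly all of its 12 features were above background, apart from 1 of 12 in 7-day pool 5 and 2 of 12 in 35-day pool 4. Its 45 against 7 day difference of 1.08 (SE 1.17, exact permutation p = 0.446) was -1.39 on the first slide and 3.12 on the second. TpnC47D averaged -4.28 ± 2.00 at 7 days (n = 5), -4.10 ± 1.93 at 35 days (n = 5) and -3.60 ± 1.17 at 45 days (SD, n = 6). Its 45 against 7 day difference was 0.68 (SE 0.89, exact permutation p = 0.498). On the first and second slide TpnC47D differed by -0.22 and 1.25 for 45 against 7 days, by -1.58 and 1.97 for 35 against 7 days and by 1.35 and -0.72 for 45 against 35 days, so that each direction changed between the slides. The direction also changed between the slides for TpnC73F at 45 against 35 days (-1.84 and 3.32) and at 35 against 7 days (0.46 and -0.21), TpnC4 at 45 against 35 days (1.48 and -0.11) and TpnC25D at 35 against 7 days (-0.25 and 0.92).

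**Figure D4:**
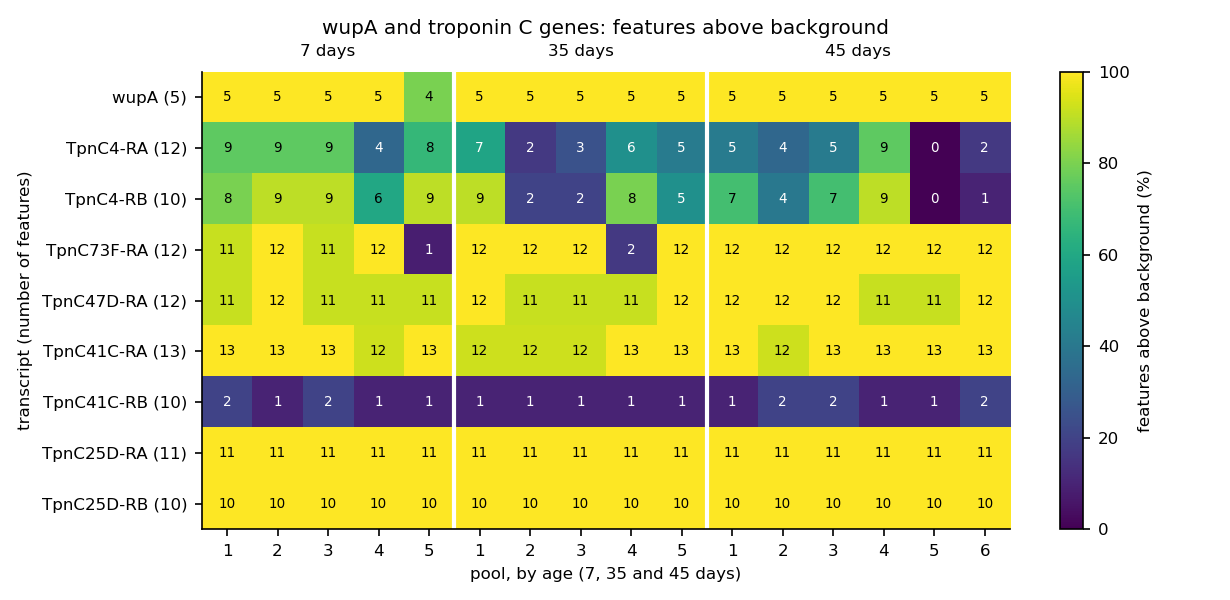
Share of the features of wupA (troponin I) and of each troponin C transcript that were above background (colour, percent, with the number of features in each cell) in each of the 16 pools, ordered by age. TpnC25D was above background with all features in every pool, TpnC41C-RB with 1 or 2 of 10, and TpnC4 with 0 of 22 in 45-day pool 5 and 18 of 22 in 45-day pool 4.

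Other genes of the contractile apparatus were followed as lists, alongside the troponins. Of 9 thin filament genes outside the troponins, 8 were measured and 6 of them were above background on all 16 arrays, among them the muscle actins Act87E and Act79B, the filament cap tmod and Lasp. Their summed linear level relative to the 75th percentile was 3.03 to 10.4 in 7-day pools, 5.20 to 10.4 in 35-day pools and 5.57 to 13.8 in 45-day pools. All 9 thick filament and titin-like genes were measured and 7 were above background on all 16 arrays, including the myosin heavy chain Mhc, its light chains Mlc1 and Mlc2, and myofilin, Mf. Their sum was 0.872 to 6.17 in 7-day pools, 1.46 to 5.12 in 35-day pools and 3.34 to 11.1 in 45-day pools.

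In both lists 0 genes passed the adjusted limma threshold in any pair of ages. At an unadjusted p under 0.05, 2 of 8 thin filament and 2 of 9 thick filament genes were higher at 45 than at 7 days and 0 lower. Of all genes, 9.08% had such a p in limma for 45 against 7 days in either direction, 24.1% for 35 against 7 days and 7% for 45 against 35 days. At 45 against 35 days 4 of 9 thick filament genes were higher and 0 lower, and 1 of 8 thin filament genes was higher and 1 lower. At 35 against 7 days 2 thick filament genes, bt and sls, were lower and 0 thin filament genes had such a p. Both bt and sls were also among the 4 higher at 45 against 35 days, and sls averaged -8.69 at 35 days, near background. The 4 genes higher at 45 than at 7 days were Tm2, a tropomyosin, with a difference of 1.80, Mf with 1.64, Act87E with 1.58 and Mlc2 with 1.51. Their adjusted p-values were 0.463, 0.442, 0.524 and 0.526 in limma. The median difference for 45 against 7 days was 0.13 over the thick filament and -0.01 over the thin filament genes. The sums of both lists were highest in 45-day pool 6 and lowest in 7-day pool 4, as was the level of wupA.

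Lists of other cell types were set beside the troponins. The summed level of 6 fat body genes, led by the yolk proteins Yp3, Yp1 and Yp2 and the lipoprotein apolpp, was 4.35 to 25.4 in 7-day pools, 9.53 to 27.9 in 35-day pools and 13.9 to 41.9 in 45-day pools. The sum of 7 glial genes, led by alrm, nrv2, Eaat1 and repo, was 24.3 to 42.4 in 7-day pools, 21.5 to 35.7 in 35-day pools and 15.6 to 28.7 in 45-day pools, and that of 10 neuronal genes 30.2 to 40.7, 26.6 to 36.8 and 27.7 to 38.8. For 6 MN genes, led by twit, Lim3, zfh1 and exex, the sums were 14.2 to 20.0, 15.8 to 18.9 and 11.2 to 16.7, and for 6 hemocyte genes, led by crq, Pxn, eater and Hml, 0.374 to 1.17, 0.170 to 0.781 and 0.245 to 1.61. In these lists 0 genes passed in any pair of ages in limma, and at an unadjusted p under 0.05 the fat body list had 2 genes higher, the glial list 2 lower, the MN list 1 higher (exex) and 1 lower (zfh1), the hemocyte list 1 lower (Pxn) and the neuronal list 0 at 45 against 7 days. At 35 against 7 days 3 hemocyte genes, He among them although never above background, 2 neuronal genes, 1 glial and 1 fat body gene were lower and 1 MN gene was higher. At 45 against 35 days 1 neuronal, 1 fat body (Fbp1) and 1 hemocyte gene (He) were higher and 1 glial gene was lower. Fbp1, also the fat body gene lower at 35 against 7 days, was above background on 0 of the 35-day arrays. With He above background on no array, both counts include differences from background values. Beside these counts, 9.08% of all genes had such a p for 45 against 7 days, 24.1% for 35 against 7 days and 7% for 45 against 35 days. The fat body sum was, like wupA, highest in 45-day pool 6. The MN sum was lowest, at 11.2, in 45-day pool 3, the pool with the highest up level, but the neuronal sum there, 38.8, was the highest of the 45-day pools. The part of muscle, fat body or glial RNA in the troponin differences was not tested.

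Among 8849 genes with a feature above background on at least 8 arrays, those whose level was most like that of wupA over the 16 arrays were Mp20 (Pearson r = 0.96), CG5023 (0.94), Mlc2 (0.93), Mlp84B (0.91) and Mf (0.90). Mp20, Mlp84B, Mlc2 and Mf are known as muscle genes. With the mean of each age taken out of both genes the values were 0.94, 0.91, 0.91, 0.87 and 0.84. Mp20 followed wupA from pool to pool, with levels of 1.27, 1.12, 2.26, 1.49, 0.69 and 3.57 in 45-day-old MNs, against 0.27, -1.52, 1.91, -2.55 and -0.15 in 7-day-old MNs.

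For up the nearest genes were CG32694 (0.85), Dtd (0.84), CG17193 (0.82), CG34208 (0.82) and CG41378 (0.81), and with the age means taken out 0.77, 0.77, 0.68, 0.75 and 0.56. Of these, CG32694 had levels between -9.78 and -6.12 and CG34208 between -11.05 and -4.04, which like those of up reach below the lowest signals above background. The correlations describe 16 arrays that share their normalization, and they carry no test.

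**Figure D5:**
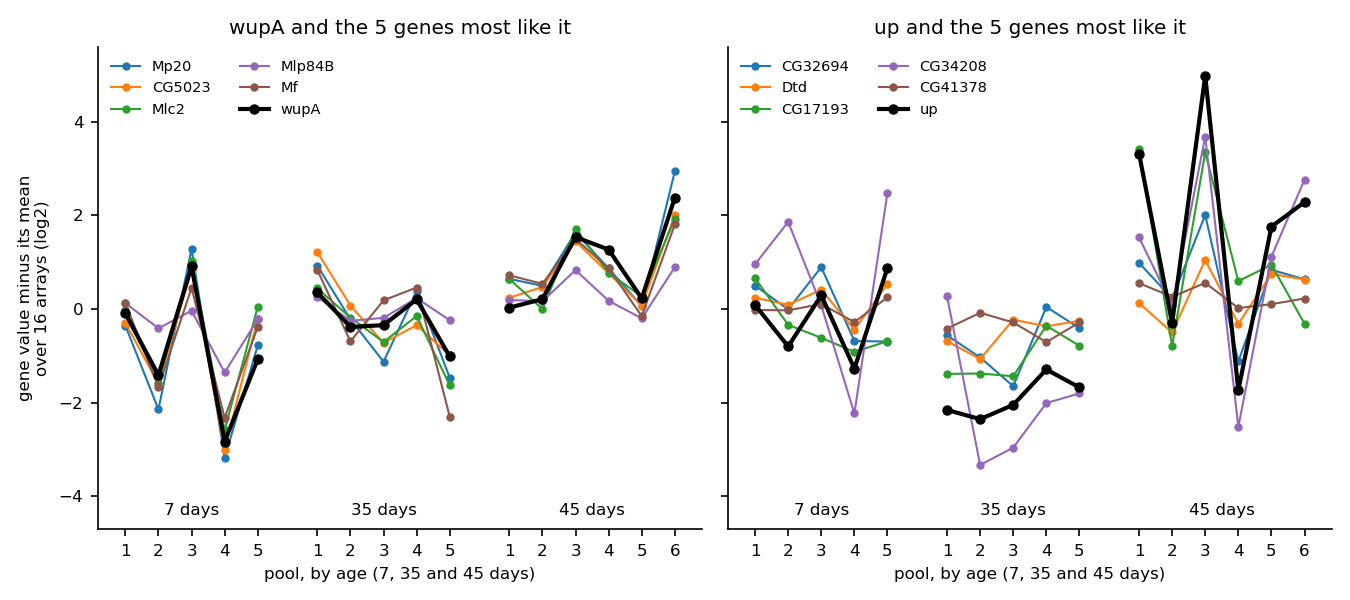
Level of wupA (left) and of up (right) in each of the 16 pools, each with the 5 genes of highest correlation, as log2 level minus the gene's mean over all arrays, with lines only to guide the eye. Mp20 and the other genes follow wupA from pool to pool, with their lowest values in 7-day pool 4 and their highest in 45-day pool 6.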

How the data were processed

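RNA from 16 pools of sorted MNs was amplified, labelled with Cy3 and hybridised by the authors to a custom Agilent array, and the images were read with Agilent Feature Extraction 11.5.1.1 per the file headers. The deposited files give the scanner intensity of each of 62976 spots (background-subtracted processed signal), of which 1319 were control spots and left out. The authors also deposited a table of log2 values, which matched the values used here after centring each feature, with column medians from -0.487 to 0.266, and was used as an alternative. No coordinates are given.

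The log2 of the processed intensity, without outlier spots (4 values of troponin features), was averaged over the spots of a feature, and the array's 75th percentile (6138 to 14896 as linear intensity) was subtracted. Of the 45366 features, 34982 were named, mostly through the accession in the files and the RefSeq gene table, and all 267 troponin features in this way. Of the troponin spots 0 were saturated. Ages were compared in pairs with limma 3.58.1 in R 4.3.3 on the arrays of that pair, with Benjamini-Hochberg adjustment over 45366 features or 12976 genes, at an adjusted p under 0.05 and above 2-fold. An F test used all 16 arrays with no minimum fold. Exact two-sided permutation tests were run on gene levels in scipy 1.17.1 under Python 3.11.15, and cannot go below 0.00794 for 5 against 5 or 0.00433 for 6 against 5 pools. The labels describe biologically independent pools. A fold is given as a bound where no array of the dim age was above background. The mean of the other age was used as measured, with any values under background included. The number of arrays limits the precision.

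The text names all 7 troponins, every troponin feature past a threshold with its transcript, up transcripts annotated to a muscle, the 5 nearest genes of up and wupA, and up to 4 genes of each list. Further list genes are named where a count or a level near background concerned them. Members and lists were chosen with earlier results of these data known. Transcript annotations came from the study's design table. Alternatives changed the normalization, background, filter, variance model, slide, slide row, pool number and array weights, or left out each array. The normexp correction used the median signal, since the files hold no mean signal. The scripts were tested on simulated data.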

Additional observations from a re-analysis of the deposited data

Results flagged for a closer look

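Of 21 groups of pools (7 genes at 3 ages), 2 held a pool far from the others, where chance flags about 5% of groups. TpnC47D in 7-day pool 2 had a level of -0.79, while the other 7-day pools lay between -5.73 and -4.56. TpnC41C in 35-day pool 4 had a level of -4.06, while the other 35-day pools lay between -5.84 and -5.65. The gap to the nearest pool was 0.762 and 0.892 of the group's range, against a limit of 0.71.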

How the results depend on the processing

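Across the alternatives, 0 genes passed between 45 and 7 or between 45 and 35 days. The up difference was 0.96 to 2.57 for 45 against 7 days, -3.48 to -0.20 for 35 against 7 days and 1.16 to 4.31 for 45 against 35 days, and that of wupA 1.36 to 2.29, 0.18 to 1.12 and 0.74 to 1.36. For 45 against 7 days quantile normalization and median scaling gave 1 feature each, and leaving out an array 0 to 1. For 35 against 7 days (3 features) quantile normalization, normexp, a model of all 3 ages and the replicate block gave 0, the unmoderated test 1, a floor at the lowest flagged signal 29 and array weights 89, and leaving out an array 1 to 71. There the floor and the filter on dim features gave 1 gene (up, -1.07 and -3.48, the filter keeping only 3 up features, each above background in all 5 of the 7-day and 0 of the 35-day pools, so that this difference is fixed by the filter), array weights 2 genes (up and TpnC4), and leaving out an array 0 to 1. For 45 against 35 days leaving out an array gave 0 to 2 features. The F test (1 feature) gave 3 with quantile normalization, 12 with median scaling, 0 with normexp or the floor, 100 with array weights, and 0 to 1 without an array. The share of all features that passed was not computed under these alternatives, so the counts cannot be read as particular to the troponins. The cause of these shifts was not tested.

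With the replicate block, which takes pool numbers as pairs, 0 features passed in each pair of ages (68, 120 and 145 at an unadjusted p under 0.05). The share of all features at this p was not computed with the block. Deviations of pools with the same number correlated by -0.0587 to 0.135, so the numbers were not taken to pair the pools.

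The direction changed for TpnC73F at 45 against 35 days with normexp (-0.034), and when an array was left out for TpnC73F at 45 against 35 days (-0.36 to 1.14) and 35 against 7 days (-0.36 to 1.43), TpnC47D (-0.49 to 1.06) and TpnC25D (-0.56 to 1.07) at 35 against 7 days, TpnC41C at 45 against 7 days (-0.18 to 0.69) and TpnC4 at 45 against 35 days (-0.10 to 1.43). Signals below background limit up and TpnC4.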

Other observations

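Single features that stood apart, chosen after their values were seen, were found within up, wupA and TpnC41C. The up-RD feature A_09_P207745 was above background on 4 of 6 arrays at 45 days and 2 of 5 at 7 days, as were some other up features. Its levels were -4.26 in 45-day pool 2 and -7.99 in 45-day pool 5, where up-RD averaged -8.75 and -5.65. In 7-day pool 2 this feature was at -2.72, where up-RD averaged -8.68. The wupA feature A_09_P010057 was above background in 6 of 6 pools at 45 days and 4 of 5 at 7 days, where its levels were -2.61, -4.05, -0.42 and -4.81 in pools 1 to 4 and -9.26, below background, in pool 5. The TpnC41C-RB feature CUST_1479_PI429798866 was above background on all 16 arrays, with means of -6.39 at 45 days and -5.99 at 7 days (adjusted p = 0.659 in limma).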
